A study of Mus musculus with 8 samples.

Results

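This is an account of 34 genes that encode histone deacetylases and the corepressor complexes in which they work, measured in regenerating mouse liver with and without a hairpin against Tbl1xr1. The members were taken by name: the deacetylases Hdac1, Hdac2 and Hdac4 to Hdac11, and subunits of the Sin3, NuRD and CoREST complexes, the CtBP proteins and the ligand-dependent corepressors Nrip1 and Lcor. They are 34 of the 55401 genes in each deposited table, and the core subunits of the NCoR/SMRT complex, to which Tbl1xr1 belongs, are not among them. All 34 had enough counts to be tested. Mice of the C57BL/6J strain received an adeno-associated virus aimed at hepatocytes that carried either a control hairpin (shNC, 4 libraries) or a hairpin against Tbl1xr1 (shTbl1xr1, 4 libraries). Every mouse in both groups was operated 4 weeks later by partial hepatectomy, in which most of the liver is removed, and liver was collected on day 2. Sex, age and the promoter of the hairpin were not given in the sources used here. Whether the replicates came from different mice is not labelled either, and p-values therefore measure only the spread among these libraries.

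Histone deacetylases remove acetyl groups from lysines of histone tails, which favours compact chromatin and low transcription. Class I enzymes such as Hdac1 and Hdac2 have little selectivity alone and act as the catalytic core of larger complexes, where Sin3 proteins, the NuRD remodelling helicases and the CoREST scaffold bring them to DNA-bound factors. The NCoR/SMRT complex uses a different class I enzyme, Hdac3, which is not among the members. In liver such complexes are known for restraining metabolic and cell cycle genes, and Nrip1 (also called RIP140) for repressing nuclear receptor targets.

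Expected counts added up to between 25811763 and 27537235 per shNC library, and to 10895508, 10728583, 26976205 and 36720879 for shTbl1xr1 1 to 4. The first pair of shTbl1xr1, called the shallow libraries below, stood apart from the other 6 on the first principal component (59.3% of the variance) and had 11.3% and 14.8% of counts from mitochondrially encoded genes, against 4.52% to 7.34% elsewhere. The hepatocyte markers Alb, Apoa1, Ttr, Fga, Cps1 and Serpina1c summed to 61067 to 80014 CPM (counts scaled to a common library size, here by the trimmed mean of M values, TMM) in shNC and 54533 to 97004 CPM in shTbl1xr1, with none at 0 in any library. Tbl1xr1 itself had 27.2, 35.9, 33.7 and 34.6 in shNC 1 to 4 and 2.38, 2.07, 9.24 and 15.9 CPM in shTbl1xr1 1 to 4, so the remaining transcript was lowest in the shallow libraries (two-sided exact permutation p = 0.0286, the smallest that 4 against 4 can give). With a log2 fold change of -2.07 (SE 0.54) it missed the threshold of edgeR's quasi-likelihood test, adjusted over all genes by Benjamini-Hochberg (adjusted p = 0.290).

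No member passed the same test over all genes. By edgeR, 0 of 34 members passed at an adjusted p of 0.05, where 0.0503% of the 13908 tested genes did, and the members' adjusted p ranged from 0.336 to 0.994. DESeq2 also called 0 members, against 1.81% of all genes in either direction. At an unadjusted p of 0.05, 1 member was higher (Mta1) and 2 were lower (Hdac1 and Hdac2), beside 7.90% and 3.71% of all genes. These 3 members, or 8.82%, had groups that did not overlap, near the 7.25% of all genes (3.88% higher and 3.37% lower). Log2 fold changes were above 0 for 15 members and for 50.6% of all genes. The median was -0.02 for the members and 0.0063 for all genes. Fold changes were small, with 31 of 34 members within 0.5 of 0 on the log2 scale.

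**Figure D1:**
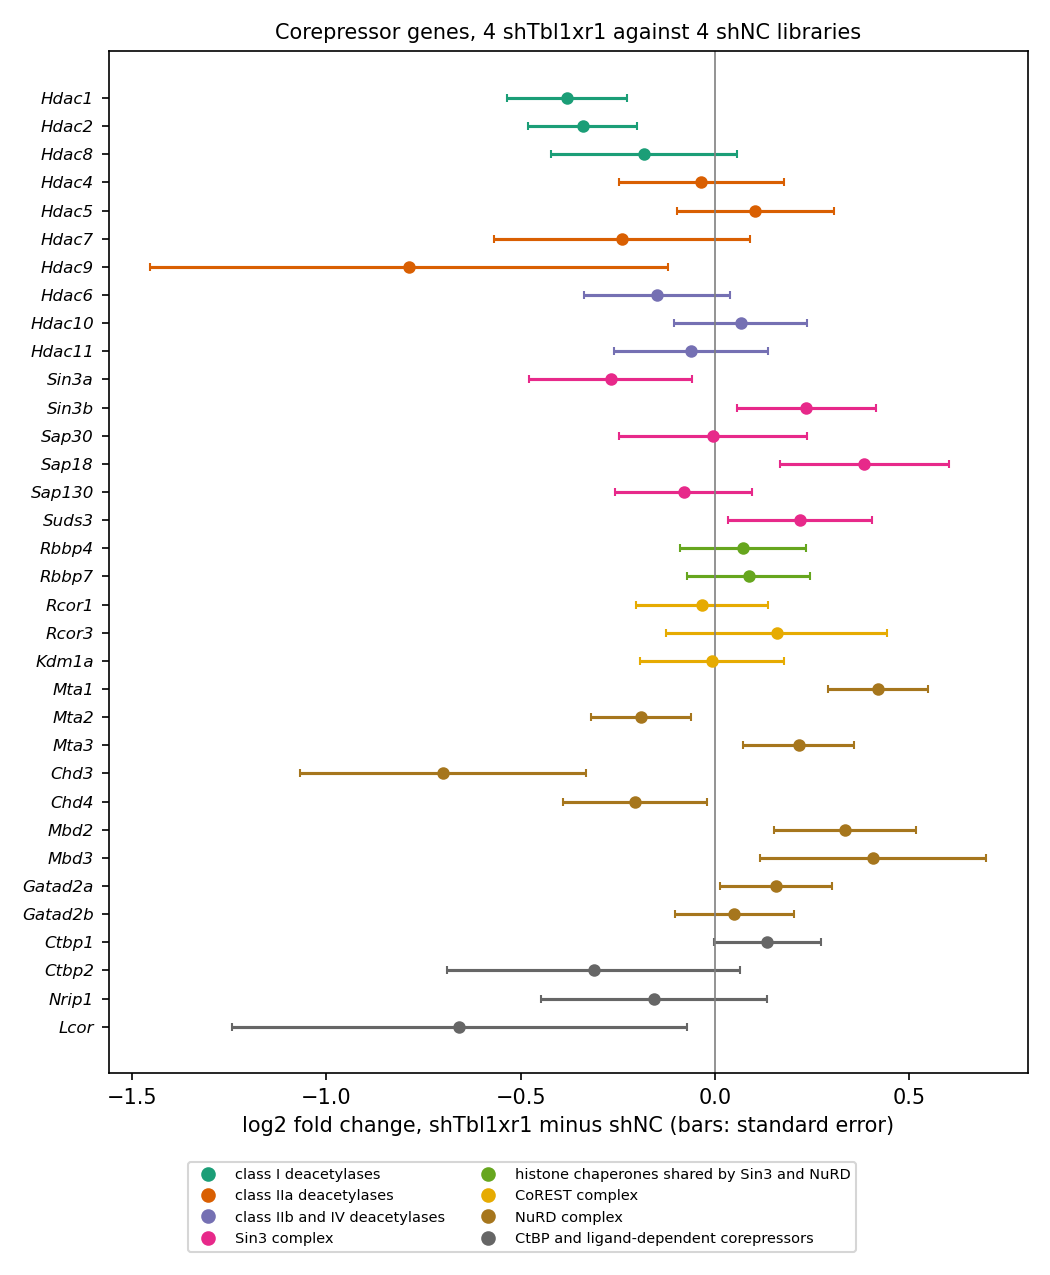
Log2 fold change of each of the 34 genes in shTbl1xr1 against shNC (x axis) with its standard error, 4 libraries a group, coloured by class or complex. Hdac1, Hdac2 and Mta1 stand more than 2 standard errors from 0, and the widest bars belong to Hdac9 and Lcor.

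The promoters of Hdac2 and Mta1 are shown here because, with Hdac1, these genes carry the largest differences relative to their standard errors. The windows run from 250 bases before to 50 after the annotated start and come from RefSeq (GRCm38.p6), in which 28 of the 34 members matched by symbol. Hdac2 lies on the plus strand at chr10:36974294-36974593 and Mta1 on the plus strand at chr12:113098028-113098327. Capitals mark the GC box, searched as GGGCGG on both strands.
Hdac2: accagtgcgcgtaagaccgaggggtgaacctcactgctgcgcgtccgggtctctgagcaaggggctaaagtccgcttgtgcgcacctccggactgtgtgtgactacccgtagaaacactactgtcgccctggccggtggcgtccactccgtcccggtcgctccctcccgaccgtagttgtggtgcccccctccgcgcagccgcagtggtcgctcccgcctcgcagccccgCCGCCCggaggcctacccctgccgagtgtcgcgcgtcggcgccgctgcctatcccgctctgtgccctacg
Mta1: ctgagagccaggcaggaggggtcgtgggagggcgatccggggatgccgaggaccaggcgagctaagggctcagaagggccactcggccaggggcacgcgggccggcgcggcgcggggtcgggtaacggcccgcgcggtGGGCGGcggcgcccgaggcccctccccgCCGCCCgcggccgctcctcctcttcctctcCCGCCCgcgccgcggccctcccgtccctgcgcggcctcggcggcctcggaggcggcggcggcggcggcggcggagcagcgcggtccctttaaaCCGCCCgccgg
The Hdac2 window held 1 GC box and the Mta1 window 4, and neither held a CCAAT box (CCAAT) or a TATA box (TATAAA), both searched on both strands. G and C made up 69.7% of the Hdac2 window and 81.0% of the Mta1 window. Of the 38 windows of the 28 matched members, 71.1% held a GC box, 19 windows a CCAAT box and 15.8% a TATA box, against 35.7%, 37.4% and 13.6% of the 32851 windows of the same length in the table. These are matches of letters and were not tested as binding sites.

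Both class I enzymes that serve as the catalytic core of Sin3, NuRD and CoREST had lower levels in all 4 shTbl1xr1 libraries, and neither passed the test over all genes. Hdac1 (ENSMUSG00000028800.15, chromosome 4, 129516104 to 129542713, minus strand, mm10) had 36.99, 37.2, 35.5 and 34.5 in shNC 1 to 4 and 27.9, 21.3, 31.6 and 29.7 CPM in shTbl1xr1 1 to 4. Every shTbl1xr1 library lay below every shNC library, the lowest being shTbl1xr1 2. The means were 36.1 ± 1.29 and 27.6 ± 4.49 CPM (n = 4 each, SD), or a log2 fold change of -0.38 (SE 0.15, edgeR adjusted p = 0.412). Hdac2 (ENSMUSG00000019777.16, chromosome 10, 36974544 to 37001889, plus strand), the close paralog of Hdac1, had 24.3, 21.8, 20.3 and 20.4 in shNC and 17.5, 15.3, 16.8 and 18.7 CPM in shTbl1xr1. Its groups did not overlap either, and the nearest libraries were shNC 3 and shTbl1xr1 4. The means were 21.7 ± 1.85 and 17.1 ± 1.40 CPM, a log2 fold change of -0.34 (SE 0.14, edgeR adjusted p = 0.412). Both genes had smaller differences in the deeper shTbl1xr1 libraries, 3 and 4, at 84.9% of the shNC mean for Hdac1 and 81.9% for Hdac2, than in the shallow pair, at 68.2% and 75.8%. Hdac8, a class I enzyme that works outside these complexes, had 4.38 to 4.77 in shNC and 2.38, 4.56, 4.03 and 4.96 CPM in shTbl1xr1, so its groups overlapped (a log2 fold change of -0.18, SE 0.24).

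Set against Hdac3, the class I enzyme of the NCoR/SMRT complex, both enzymes had lower ratios in shTbl1xr1. Ratios within a library do not depend on how libraries are scaled. These 2 were chosen after their values were seen, so they carry no test. They also move with Hdac3, whose own level is not given here, and Hdac1 and Hdac2 alone already had groups without overlap. The mean differences of -0.82 and -0.51 exceeded in size the log2 fold changes of -0.38 and -0.34 of Hdac1 and Hdac2. The log2 ratio of Hdac1 to Hdac3 in TPM (the deposited level per length and library, plus 0.1) was 0.69, 0.55, 0.57 and 0.33 in shNC 1 to 4 and -0.60, -0.57, -0.039 and 0.085 in shTbl1xr1 1 to 4. Hdac1 thus exceeded Hdac3 in all 4 shNC libraries, and the groups did not overlap. The log2 ratio of Hdac2 to Hdac3 was 0.044, -0.23, -0.24 and -0.40 in shNC and -0.81, -0.48, -0.96 and -0.63 in shTbl1xr1, again without overlap. From counts in place of TPM, the mean difference of the Hdac2 ratio was -0.77 in place of -0.51. With the deeper libraries only, the Hdac1 ratio differed by -0.51 in place of -0.82.

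**Figure D2:**
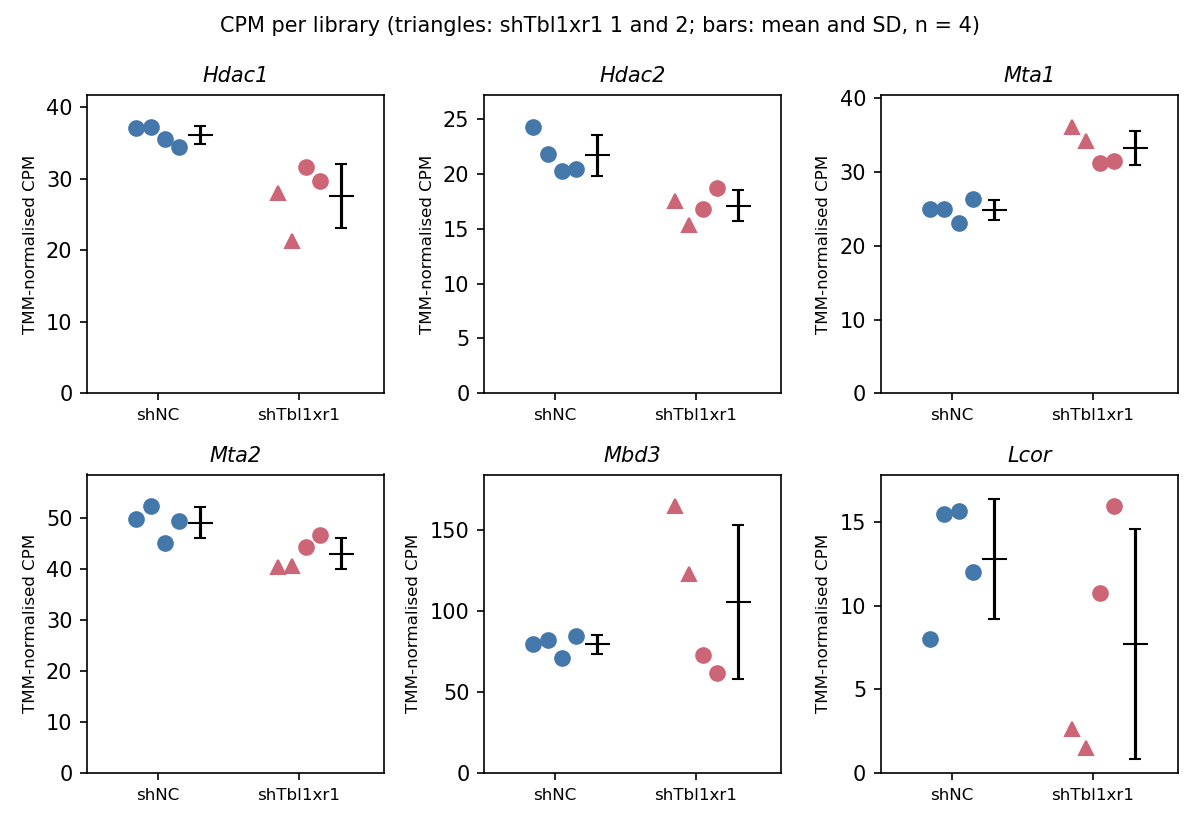
TMM-normalised CPM (y axis, from 0) of 6 genes in each of the 4 shNC and 4 shTbl1xr1 libraries, with the shallow libraries shTbl1xr1 1 and 2 as triangles and bars for mean and SD (n = 4). Hdac1 and Hdac2 lie lower and Mta1 higher in every shTbl1xr1 library, while Mbd3 and Lcor differ between the triangles and the other shTbl1xr1 libraries.

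NuRD joins nucleosome remodelling by a Chd helicase to deacetylation, with an Mta protein as the scaffold that binds Hdac1 or Hdac2. Of its 9 members here, 0 passed over all genes, and the median log2 fold change was 0.16, beside 0.0063 for all genes. Mta1 (ENSMUSG00000021144.14, chromosome 12, 113098278 to 113137206, plus strand) had 24.9, 24.9, 23.0 and 26.3 in shNC 1 to 4 and 36.0, 34.1, 31.2 and 31.4 CPM in shTbl1xr1 1 to 4. All 4 shTbl1xr1 libraries lay above every shNC library, with the deeper pair at 126% and the shallow pair at 142% of the shNC mean. The means were 24.8 ± 1.34 and 33.2 ± 2.32 CPM (n = 4 each, SD), or a log2 fold change of 0.42 (SE 0.13, edgeR adjusted p = 0.336, unadjusted p = 0.00904, the smallest of the 34 members). With libraries scaled by size alone, a setting that put the median of all genes at -0.27, its log2 fold change was 0.11 and its groups overlapped. In that setting 0 members lay higher without overlap and 3 lay lower (Hdac1, Hdac2 and Mta2), beside 7.01% of all genes for lower. By DESeq2 the adjusted p of Mta1 was 0.0691, and over all settings tried it ranged from 0.00924 with the shallow pair only to 0.788.

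The paralog Mta2, the most abundant Mta transcript in shNC, had 45.1 to 52.4 in shNC and 40.4, 40.7, 44.4 and 46.7 CPM in shTbl1xr1 (a log2 fold change of -0.19, SE 0.13), with overlapping groups. Mta3, the third paralog, had 11.1 to 13.6 in shNC and 13.5 to 16.0 CPM in shTbl1xr1 (0.22, SE 0.14), and its lowest shTbl1xr1 library lay just inside the shNC range. Per length, the log2 ratio of Mta1 to Mta2 was -0.81, -0.93, -0.86 and -0.75 in shNC 1 to 4 and 0.022, -0.067, -0.32 and -0.43 in shTbl1xr1 1 to 4. Every shTbl1xr1 ratio lay above every shNC ratio, so by the mean log2 ratio Mta1 stood at 0.560 of Mta2 in shNC and 0.870 in shTbl1xr1. This was the only 1 of the 12 paralog pairs listed whose groups did not overlap on this scale. The pairs were chosen with earlier results of these data known, so this count carries no test. The share among other gene pairs was not computed, and Mta1 by itself already had groups that did not overlap. The deeper pair alone gave a mean difference of 0.46 in this ratio, where all 4 gave 0.64.

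The other NuRD subunits had overlapping groups. Mbd3, the methyl-CpG-binding-domain protein that holds the complex together, had 70.8 to 84.7 in shNC and 164, 122, 72.7 and 61.9 CPM in shTbl1xr1 1 to 4. The shallow pair lay above the shNC range and shTbl1xr1 4 below it, and the log2 fold change of 0.41 (SE 0.29) became -0.24 in the deeper libraries only. Mbd2, its methyl-DNA-binding paralog in alternative NuRD assemblies, had 34.7 to 39.2 in shNC and 46.6, 58.6, 45.6 and 32.5 CPM in shTbl1xr1 (0.33, SE 0.18). Libraries 1 to 3 lay above the shNC range and shTbl1xr1 4 below it. The helicase Chd3 had 54.4, 75.0, 126 and 79.9 in shNC and 27.8, 41.0, 46.9 and 89.7 CPM in shTbl1xr1 (-0.70, SE 0.37), so its groups overlapped and its spread within shNC alone was more than 2-fold. Its paralog Chd4, the main NuRD helicase in many tissues, had 88.7 to 134 CPM and 79.9 to 117 CPM (-0.21, SE 0.19). The zinc-finger subunits Gatad2a and Gatad2b, which link the Mbd protein to the helicase, had log2 fold changes of 0.16 (SE 0.14) and 0.05 (SE 0.15), and relative to its mean Gatad2b had the smallest shNC spread of the 34 members (19.6 ± 0.373 CPM).

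**Figure D3:**
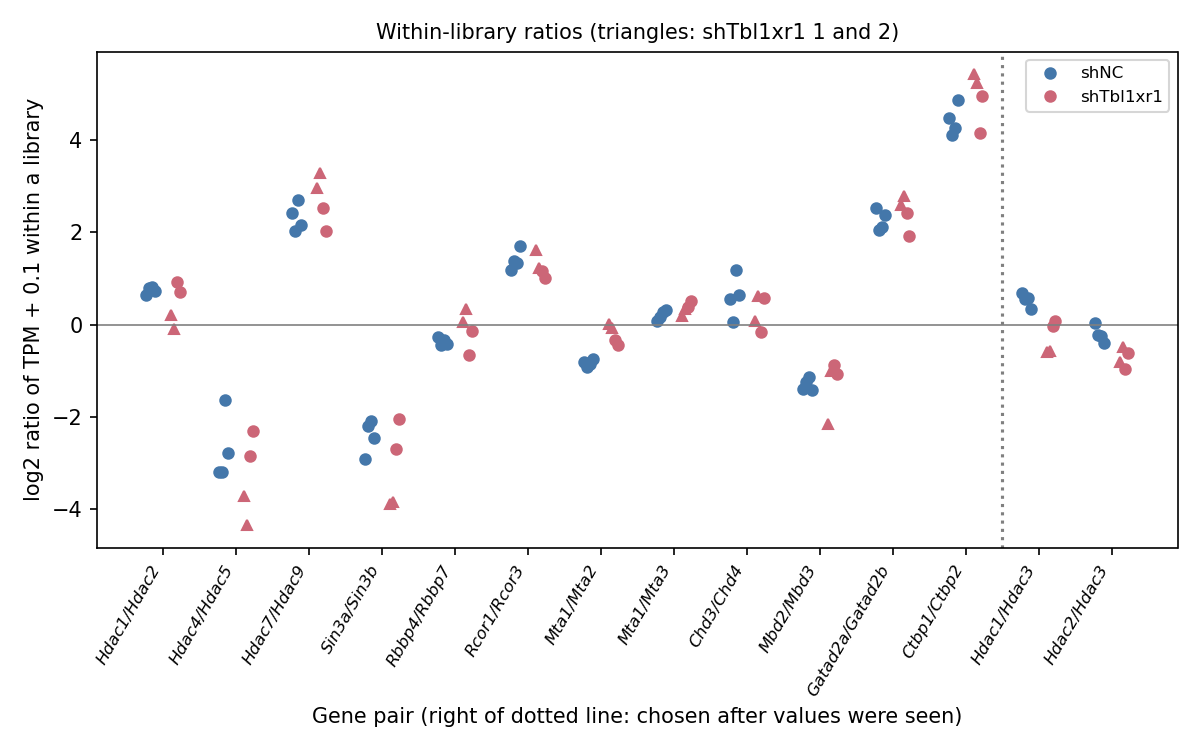
Log2 ratio of 2 genes within each library (y axis, TPM plus 0.1) for 12 paralog pairs and, right of the dotted line, for Hdac1 and Hdac2 over Hdac3, with shallow libraries as triangles. The Mta1 to Mta2 ratio lies between -0.93 and -0.75 in shNC and between -0.43 and 0.022 in shTbl1xr1, and the triangles stand apart from the circles of their group for Sin3a to Sin3b.

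In the Sin3 complex, a scaffold that holds Hdac1 and Hdac2 through Sap and Suds3 subunits, 0 of 6 members passed and 3 had log2 fold changes above 0. The paralogous scaffolds had fold changes of opposite sign, each within its spread. Sin3a had 17.8 to 22.9 in shNC and 14.5, 12.3, 18.9 and 23.3 CPM in shTbl1xr1 (a log2 fold change of -0.27, SE 0.21). Sin3b had 25.8 to 29.6 in shNC and 41.1, 35.1, 31.1 and 23.7 CPM in shTbl1xr1 (0.24, SE 0.18, and -0.10 with libraries scaled by size alone). In both genes shTbl1xr1 4 lay on the other side of shNC from the shallow pair. The Sin3a to Sin3b log2 ratio per length was -3.88 and -3.84 in the shallow libraries, below the shNC range of -2.91 to -2.08, and -2.70 and -2.04 in shTbl1xr1 3 and 4.

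Suds3, which tethers the deacetylase to Sin3, had 75.5 to 95.7 in shNC and 121, 111, 83.1 and 77.3 CPM in shTbl1xr1 (0.22, SE 0.19, and -0.14 by size alone). Sap18 had 20.7, 20.7, 18.9 and 20.8 in shNC and 34.5, 33.0, 20.3 and 18.9 CPM in shTbl1xr1 (0.39, SE 0.22). Its shallow pair thus lay above shNC and its deeper pair within or just below it. Sap18 has a near-identical copy, Sap18b, with which fragments could be split, and the level of Sap18 alone is uncertain. Summed, the pair of copies had 89.4 ± 8.86 in shNC and 138 ± 62.1 CPM in shTbl1xr1 (n = 4 each, SD), with the same 2 libraries high. Sap18b made up most of this sum, at 69.2 ± 8.23 and 112 ± 53.9 CPM, so the sum mainly follows Sap18b. Sap30, a small Sin3 adaptor, and Sap130, a Sin3-binding protein, had log2 fold changes of -0.0045 (SE 0.24) and -0.08 (SE 0.18).

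The histone chaperones Rbbp4 and Rbbp7, WD-repeat proteins that bring both Sin3 and NuRD to nucleosomes, were among the most abundant members. Rbbp4 had 125 ± 6.13 in shNC and 131 ± 20.8 CPM in shTbl1xr1, and Rbbp7 90.4 ± 7.81 and 96.1 ± 14.5 CPM (SD, n = 4 each). Their log2 fold changes were 0.07 (SE 0.16) and 0.09 (SE 0.16), and both turned negative with libraries scaled by size alone (-0.27 and -0.23), close to the shift of all genes.

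CoREST pairs Hdac1 or Hdac2 with the histone demethylase Kdm1a on the scaffold Rcor1 or Rcor3. None of these 3 members passed, and their log2 fold changes were -0.03 (SE 0.17) for Rcor1, 0.16 (SE 0.28) for Rcor3 and -0.0068 (SE 0.18) for Kdm1a. Rcor3 had 3.17 to 5.13 in shNC and 3.13, 3.73, 4.12 and 6.79 CPM in shTbl1xr1, where shTbl1xr1 4 alone exceeded the shNC range.

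Class IIa deacetylases bind MEF2 factors, shuttle between nucleus and cytoplasm, and have weak catalytic activity of their own. In each of Hdac4, Hdac5, Hdac7 and Hdac9 both shallow libraries were lower than both deeper shTbl1xr1 libraries, and the groups overlapped. Hdac5, the most abundant of the class, had 16.5 to 24.3 in shNC and 16.4, 22.1, 28.3 and 24.3 CPM in shTbl1xr1 (a log2 fold change of 0.10, SE 0.20, and -0.14 by size alone). Hdac4 had 6.27 to 8.33 in shNC and 6.38, 5.11, 8.53 and 8.70 CPM in shTbl1xr1 (-0.04, SE 0.21). Hdac7 had 4.18 to 5.72 in shNC and 2.25, 2.76, 6.57 and 5.40 CPM in shTbl1xr1 (-0.24, SE 0.33). Hdac9 was the least abundant member. Its counts were 38, 46, 25 and 49 in shNC and 1, 0, 30 and 59 in shTbl1xr1, where 0 counts in shTbl1xr1 2 allow up to 0.414 CPM (3 counts, counting error only). Its log2 fold change was -0.79 (SE 0.67).

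Hdac6 and Hdac10, class IIb enzymes that act largely on cytoplasmic proteins and polyamines, and Hdac11, the only class IV enzyme, had overlapping groups. Hdac6 had 15.8 ± 2.86 and 14.1 ± 2.23 CPM in shNC and shTbl1xr1, Hdac10 6.73 ± 0.355 and 7.07 ± 1.05 CPM, and Hdac11 21.02 ± 4.24 and 20.1 ± 3.498 CPM (SD, n = 4 each). Their log2 fold changes lay between -0.15 and 0.07.

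CtBP proteins are NADH-binding corepressors that recruit CoREST and deacetylases, and Nrip1 and Lcor bind agonist-occupied nuclear receptors and in turn CtBP and deacetylases. Lcor had 8.04, 15.5, 15.7 and 12.02 in shNC 1 to 4 and 2.63, 1.52, 10.8 and 15.9 CPM in shTbl1xr1 1 to 4. The shallow libraries, with 21 and 11 counts, were at 16.2% of the shNC mean and the deeper pair at 104%, and the log2 fold change was -0.66 (SE 0.59). Nrip1 had 8.86 to 12.9 in shNC and 6.63, 6.08, 13.4 and 13.7 CPM in shTbl1xr1 (-0.16, SE 0.29), so the shallow pair lay below and the deeper pair above every shNC library. Ctbp2 had 1.74 to 2.78 in shNC and 1.001, 1.10, 3.22 and 1.81 CPM in shTbl1xr1 (-0.31, SE 0.38), and shares 314 exon bases with Fgfr2 on the same strand. Ctbp1, its far more abundant paralog, had 50.5 ± 2.14 and 55.5 ± 6.19 CPM (0.13, SE 0.14, and -0.19 by size alone).

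**Figure D4:**
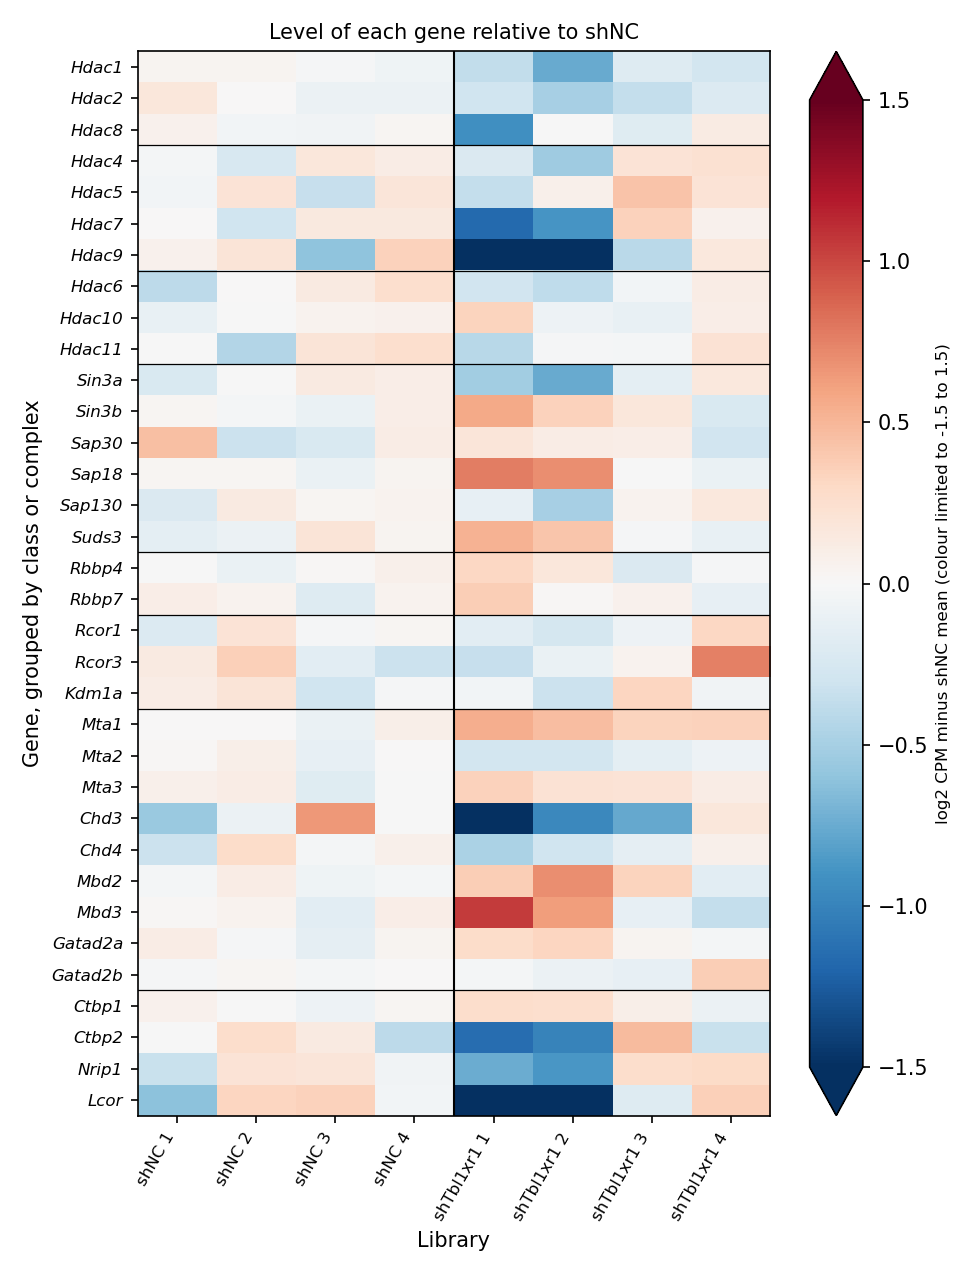
Log2 CPM of each of the 34 genes (rows, grouped by class or complex) in each of the 8 libraries (columns), minus the gene's shNC mean, with colour limited to -1.5 to 1.5. Hdac1 and Hdac2 are blue and Mta1 is red in all 4 shTbl1xr1 columns, while most other strong colours sit in shTbl1xr1 1 and 2.

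Most members separated the shallow from the deeper shTbl1xr1 libraries. Tbl1xr1 itself was also lowest in the shallow pair, at 2.38 and 2.07 CPM, against 9.24 and 15.9 CPM in the deeper pair. In 11 members both shallow libraries exceeded both deeper shTbl1xr1 libraries and in 16 both were lower, which also held for 31.5% and 37.4% of all genes. Against shNC, the shallow pair lay above the range for 10 members and below it for 11, where all genes gave 29.2% and 32.9%. The deeper pair lay above it for 4 (Hdac4, Hdac5, Nrip1 and Mta1) and below it for 2 (Hdac1 and Hdac2), where all genes gave 10.6% and 10.4%. In a fit of the shallow pair alone against shNC, edgeR called 6 members higher and 9 lower, beside 21.5% and 21.1% of all genes. In the deeper libraries only it called 0 members, and the sign of the fold change was the opposite of that with all libraries for 18 of 34. The median coefficient of variation of the members was 10.3% in shNC and 19.0% in shTbl1xr1, and it was larger in shTbl1xr1 for 28 of 34.

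Gene length moved with this split. The tested genes were parted by deposited length into 4 bins of 3477, and the median difference of the shallow pair from shNC, in log2 of CPM plus 0.5, was 0.59, 0.11, -0.22 and -0.51 from the shortest to the longest bin. The members in those bins had medians of 0.45, 0.16, -0.20 and -0.37 (3, 12, 9 and 10 genes). In the deeper pair the medians of all genes were -0.10, -0.037, 0.031 and 0.093. Spearman's rho of length against the shallow difference was -0.55 across 13908 genes and -0.51 across the 34 members, which share libraries and are not independent replicates. The 2 deeper libraries differed from each other in this: rho was 0.041 across all genes and -0.25 across members in shTbl1xr1 3, and 0.35 and 0.70 in shTbl1xr1 4. Mbd3 (1524 bases), Sap18 (1579) and Sin3b (1200) were high in the shallow pair, and Lcor (4913), Nrip1 (6091) and Hdac9 (4392) low. Hdac1 (1984 bases, -0.55) and Hdac2 (1996, -0.39) lay below the 0.11 median of their bin in the shallow pair, and Mta1 (2739, 0.49) above its -0.22. They were not alone in lying off these medians. In the bin of Hdac1 and Hdac2, Ctbp2 had -0.85 and Hdac8 -0.41, while Sap18 had 0.72. In the bin of Mta1, Chd3 had -1.23 and Hdac7 -0.92, while Gatad2a had 0.30 and Rbbp4 0.24. The part of length, RNA quality, depth or degree of knockdown in these values was not tested.

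**Figure D5:**
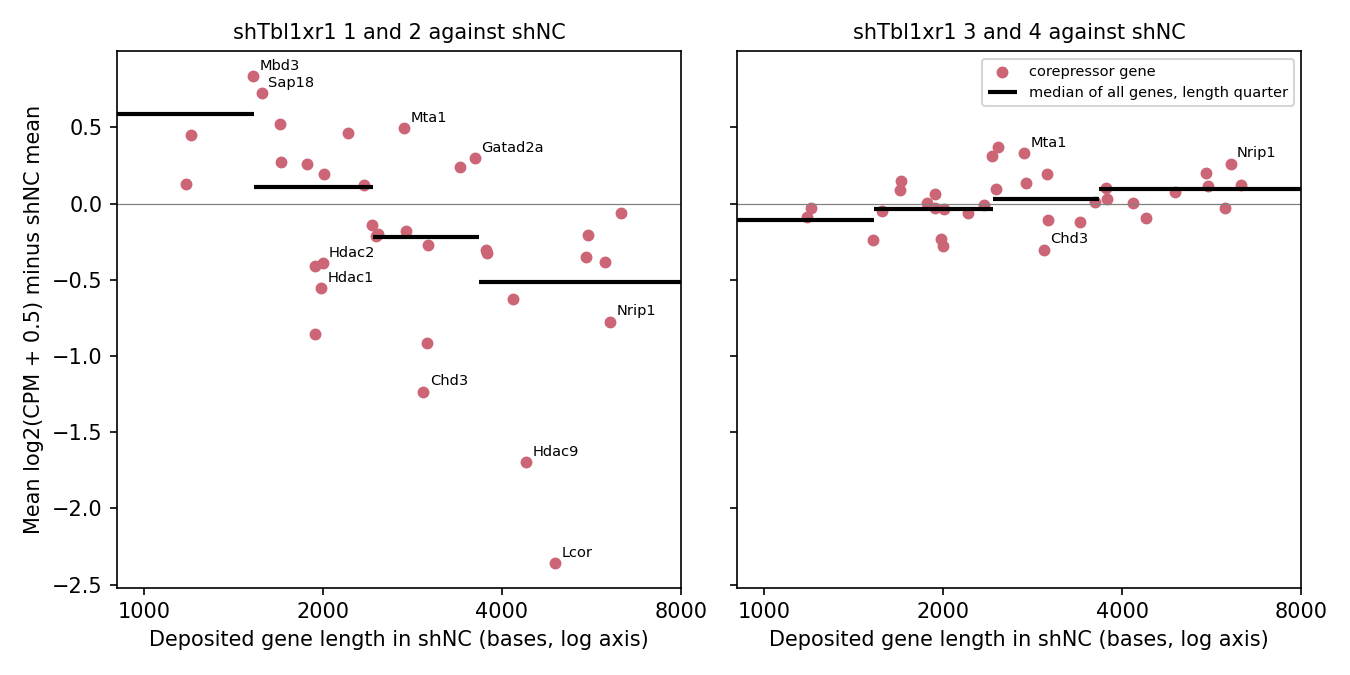
Difference from shNC in mean log2 of CPM plus 0.5 (y axis) for the shallow pair (left) and deeper pair (right) of shTbl1xr1, against deposited gene length (x axis, log scale), with 1 point per member and black lines for the median of all tested genes in each length bin. In the left panel the lines step from 0.59 to -0.51, and in the right panel from -0.10 to 0.093.

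Markers of other liver cells also differed between libraries, some with the shallow pair and some in all 4 shTbl1xr1 libraries. The 6 macrophage markers summed to 415 to 654 CPM in shNC and to 209, 232, 428 and 519 CPM in shTbl1xr1 1 to 4, the 6 endothelial markers to 185 to 212 and to 120, 106, 212 and 207 CPM, and the 6 stellate cell markers to 219 to 406 and to 105, 97.8, 474 and 248 CPM. All 6 macrophage, all 6 endothelial and 5 of 6 stellate markers had negative log2 fold changes, 0 passed over all genes, and none of these 18 was at 0 in any library. At an unadjusted p of 0.05 by edgeR, 3 markers of all the lists differed, beside 11.6% of all genes. They were 1 of 6 stellate, 1 of 3 tested lymphocyte and 1 of 6 cholangiocyte markers, with 0 in the other lists. None of the 3 passed over all genes, and they were chosen for naming after their values were seen. The stellate marker Dcn had 97.2 to 125 in shNC and 38.3, 44.3, 92.2 and 77.5 CPM in shTbl1xr1 (-0.80, SE 0.28). The lymphocyte marker Cd4 had 1.57 to 2.85 in shNC and 0.626, 0.552, 0.515 and 1.24 CPM in shTbl1xr1 (-1.47, SE 0.39). In the shallow libraries Cd4 rests on few counts, since 1 count was 0.125 CPM in shTbl1xr1 1. Dcn and Cd4 were both lower in every shTbl1xr1 library, without overlap, as were Hdac1 and Hdac2 and 3.37% of all genes. The cholangiocyte marker Prom1 had 0.538 to 1.43 in shNC and 1.13, 0.967, 9.28 and 1.83 CPM in shTbl1xr1, with library 3 alone far above the others (2.07, SE 0.72). The 6 cholangiocyte markers summed to 31.7 to 118 CPM in shNC and to 37.1, 55.0, 236 and 59.8 CPM in shTbl1xr1, and the 5 red blood cell markers to 345 to 986 and to 310 to 683 CPM. The 6 lymphocyte markers summed to 3.29 to 4.12 CPM in shNC and 1.55 to 3.00 CPM in shTbl1xr1, lower in all 4 libraries. Only 3 were tested. Of these, Cd4 alone had groups without overlap, and Cd79a had a positive log2 fold change (0.12, SE 0.54). The 5 neutrophil markers, 3 of them tested, summed to 3.51 to 8.46 and 2.13 to 14.8 CPM. Cd3e, Ly6g and Mpo were at 0 in at least 1 library of each group. The 6 cycling cell markers summed to 271 to 524 CPM in shNC and 276 to 465 CPM in shTbl1xr1. The liver was sequenced whole and the hairpin was aimed at hepatocytes, so fewer cells of a type and less RNA per cell cannot be told apart, and the part of these cells in the members' levels was not tested.

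The levels of the members in control liver spanned more than 2 orders of magnitude per length. In shNC, Mbd3 was the highest at 79.1 ± 5.97 TPM, followed by Rbbp7 at 65.6 ± 4.64, Suds3 at 55.3 ± 9.79 and Rbbp4 at 50.8 ± 1.08 TPM, and Hdac9 was the lowest at 0.413 ± 0.108 TPM (SD, n = 4). In all, 13 members exceeded 20 TPM, 11 lay between 5 and 20, and 10 lay under 5. Of the 33 neighbouring positions in this order, 30 had overlapping shNC ranges, the exceptions being Mbd3 over Rbbp7, Mta3 over Kdm1a and Ctbp2 over Hdac9. Within some paralog pairs one gene dominated: by the mean log2 ratio in shNC, Ctbp1 was 21.5-fold above Ctbp2, Hdac7 5.02-fold above Hdac9 and Gatad2a 4.80-fold above Gatad2b. Hdac4 stood at 0.153 of Hdac5 and Sin3a at 0.188 of Sin3b. Other pairs were closer: Hdac1 was 1.67-fold above Hdac2, Chd3 1.52-fold above Chd4 and Mta1 1.15-fold above Mta3, and Rbbp4 stood at 0.776 of Rbbp7. For 13 members some exon bases also belong to another annotated gene, and since the strand setting was not given in the sources used here those levels may include the neighbour's fragments. Hdac1, Hdac2 and Mta1 have no such overlap.

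Among 53 other genes of the pathway, 51 were tested and 0 passed over all genes by edgeR, with 1 higher and 1 lower at an unadjusted p of 0.05. Their median log2 fold change was -0.12. Groups did not overlap for 3 of the 51 (Sirt3 and Arid4a lower, Trerf1 higher), against 7.25% of all genes. Arid4a, a Sin3-associated protein, had -0.70 (SE 0.32) and Trerf1 0.52 (SE 0.29), and both were named after their values were seen. Trerf1 had only 0.46 to 0.57 in shNC and 0.69 to 0.84 CPM in shTbl1xr1, so few counts lie behind its separation. Of 23 tested accessory subunits of Sin3, NuRD, CoREST and related deacetylase complexes, 10 were positive and 13 negative, with Brms1, a Sin3 subunit, at 0.65 (SE 0.30) and Arid4b, another, at -0.67 (SE 0.25). Of 7 sirtuins, the NAD-dependent deacetylases, 3 were positive and 4 negative, with the mitochondrial Sirt3 lower in every shTbl1xr1 library (47.2 ± 1.94 and 38.4 ± 4.37 CPM, log2 fold change -0.29, SE 0.14). Sirt5, also mitochondrial, had 0.60 (SE 0.27). Histone acetyltransferases, which oppose the deacetylases, were positive in 3 of 10, with Kat2a at 0.15 (SE 0.13) and Kat5 at -0.30 (SE 0.16). Of 5 Groucho corepressors, Tle5, a short relative that lacks the WD repeats of the others, had 572 ± 68.2 and 1056 ± 520 CPM (0.88, SE 0.35). Tle2 had -1.10 (SE 0.57), with few counts behind its 0.501 and 0.138 CPM in the shallow libraries. Of 6 MEF2 factors and SIK kinases, which bind or phosphorylate class IIa deacetylases, Sik3 had 0.35 (SE 0.17) and Mef2d -0.21 (SE 0.22).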

How the data were processed

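The authors deposited 1 table per library with 55401 genes. Per the file headers it holds RSEM-style expected counts (estimated fragments per gene), TPM and FPKM (FPKM was not used in any result), and gene length. STAR, RSEM, DESeq2 1.30.1 and mm10 appear in the submitters' processing notes. Options, annotation release and strand setting were not given in the sources used here. As background, RSEM shares ambiguous fragments among genes, so near-identical copies are uncertain.

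Symbols came from GENCODE mouse release 21 (GRCm38, which mm10 denotes), matched without version for 55141 genes. Expected counts were rounded, filtered by filterByExpr (13908 genes), scaled by TMM and compared by edgeR 4.0.16 (R 4.3.3) with robust quasi-likelihood F tests and no covariate, adjusted by Benjamini-Hochberg over all genes tested, threshold 0.05. DESeq2 1.42.0, limma-voom (limma 3.58.1) and sva 3.50.0 were alternatives, among 18 settings. The test was also run on simulated counts, drawn gene by gene without the split of the shallow pair or the trend with length. That run cannot speak for these features. Paralog ratios used log2 of deposited TPM plus 0.1, without a test. The members, pathway lists, marker lists and pairs were chosen with earlier results of these data known. Named genes were every member, Tbl1xr1 and, per pathway list, the gene with the smallest p in each direction. The 2 ratios to Hdac3 were added later. Whether replicate numbers pair the libraries is not labelled, and 5 of 8 libraries correlated best with their own number. No block was used in the main fit, and a fit with a replicate block was among the alternatives.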

Additional observations from a re-analysis of the deposited data

Results flagged for a closer look

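In each of the 34 members the CPM of the 4 libraries of each group were screened with Dixon's test for a library far from the other 3 (68 groups). Chance gives about 1 such group in 20, and 2 were found, or 2.94%. Sap18 in shNC 3 had 18.9 CPM where the other shNC libraries had 20.7 to 20.8 CPM. Gatad2b in shTbl1xr1 4 had 25.3 CPM where the other 3 had 17.97 to 19.2 CPM.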

How the results depend on the processing

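Members called by edgeR were 0 under each alternative except the shallow shTbl1xr1 pair only (15). All genes called, 7 with all libraries, were 4 with libraries scaled by size alone, 13 without a filter on low counts, 273 by DESeq2, 32 by limma-voom with sample weights, 42 with 1 surrogate variable, 6094 with the shallow pair only, and 0 to 34 with 1 library left out (0 without shNC 1, 2 or 4, and 34 without shTbl1xr1 4). Tbl1xr1 had -2.07 and passed with -2.13 by DESeq2, -1.67 with 1 surrogate variable and -3.88 with the shallow pair only. Members with groups that did not overlap numbered 3, and 6 with the deeper and 21 with the shallow shTbl1xr1 pair, settings added after the data were seen in which fewer libraries must be cleared. With libraries scaled by size alone they were Hdac1, Hdac2 and Mta2, all lower, beside 7.01% of all genes. Paralog pairs whose ratios did not overlap numbered 1, and 2 from counts, 4 with the deeper libraries only and 1 to 3 with 1 library left out (3 without shTbl1xr1 1 or 3).

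No value of opposite sign passed the threshold. With the deeper libraries only, signs turned to 0.10 for Ctbp2, -0.0077 for Hdac10, 0.075 for Hdac11, 0.21 for Hdac4, 0.013 for Hdac6, 0.20 for Hdac7, 0.14 for Kdm1a, 0.059 for Lcor, -0.24 for Mbd3, 0.26 for Nrip1, -0.12 for Rbbp4, -0.037 for Rbbp7, 0.12 for Rcor1, 0.10 for Sap130, -0.054 for Sap18, 0.0069 for Sin3a, -0.018 for Sin3b and -0.071 for Suds3. By size alone, which moved the median of all genes to -0.27 and that of the members to -0.28, they turned to -0.19 for Ctbp1, -0.17 for Gatad2a, -0.22 for Gatad2b, -0.24 for Hdac10, -0.14 for Hdac5, -0.0064 for Mbd2, -0.0049 for Mbd3, -0.084 for Mta3, -0.27 for Rbbp4, -0.23 for Rbbp7, -0.071 for Rcor3, -0.10 for Sin3b and -0.14 for Suds3. With 1 surrogate variable they were 0.054 for Hdac11, 0.15 for Hdac4, 0.0064 for Hdac6, 0.058 for Hdac7, 0.077 for Kdm1a, -0.12 for Mbd3, 0.16 for Nrip1, -0.071 for Rbbp4, -0.022 for Rbbp7, 0.10 for Rcor1 and 0.069 for Sap130. With the shallow pair only they were -0.063 for Gatad2b, -0.15 for Hdac5, -0.25 for Rcor3 and 0.12 for Sap30. Upper quartile scaling gave -0.025 for Gatad2b, -0.012 for Hdac10 and -0.012 for Rbbp4, limma-voom -0.0020 for Gatad2b and 0.010 for Sap30, DESeq2's size factors 0.0049 for Kdm1a and 0.0090 for Sap30, and DESeq2 0.0019 for Kdm1a. With 1 library left out, ranges that crossed 0 were -0.083 to 0.10 for Gatad2b, -0.028 to 0.13 for Hdac10, -0.19 to 0.041 for Hdac11, -0.14 to 0.089 for Hdac4, -0.020 to 0.23 for Hdac5, -0.14 to 0.082 for Kdm1a, -0.34 to 0.010 for Nrip1, -0.018 to 0.16 for Rbbp4, -0.020 to 0.15 for Rbbp7, -0.17 to 0.038 for Rcor1, -0.14 to 0.29 for Rcor3, -0.17 to 0.031 for Sap130 and -0.11 to 0.17 for Sap30. The cause was not tested. Of the members, 8 kept their sign under all 18 settings (Hdac1, Hdac2, Hdac8, Hdac9, Mta1, Mta2, Chd3 and Chd4).

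With the replicate block, edgeR called 4 genes higher and 1 lower and 0 members, and Sap30 turned to 0.021. Libraries with the same number correlated at -0.074 to 0.38 in their deviations from group means, and 5 of 8 correlated best with their own number. In the shallow libraries, counts of Hdac7, Hdac9, Ctbp2 and Lcor of 0 to 21 limit what can be read from them. The same holds for Hdac8 in shTbl1xr1 1, with 19 counts, and for Tbl1xr1 itself, with 19 and 15 counts.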
